A study of Drosophila melanogaster with 9 samples.

Results

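The 10 genes described here encode receptors for the monoamine transmitters of Drosophila melanogaster: the dopamine receptors Dop1R1, Dop1R2, Dop2R and DopEcR, the serotonin receptors 5-HT1A, 5-HT1B, 5-HT2A, 5-HT2B and 5-HT7, and the octopamine receptor Oamb. They were chosen by gene symbol. The deposited table lists counts for 31838 RefSeq transcripts, 37 of which belong to these genes, and the counts were summed per gene, giving 10 receptor genes among 15413 entries. All 10 passed the filter on low counts. The 9 RNA sequencing libraries come from adult flies of 3 genotypes, with 3 libraries of each, kept at 25 degrees and collected 3 to 5 days after eclosion.

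Every genotype carried a UAS transgene of Dube3a (labelled Das45), the fly homologue of the ubiquitin ligase UBE3A, listed in the annotation as Ube3a. The control had the transgene with no driver and is labelled w. In the glial line repo-GAL4 switched it on in glia. In the neuronal line elav-GAL4 (labelled C155) switched it on in neurons. Flies with GAL4 and no UAS-Dube3a are not among these libraries, so what GAL4 itself does and what Dube3a does cannot be told apart. The labels name whole brain, while the design text speaks of 15 to 25 heads pooled per genotype. The sex of the flies is not given, nor whether replicates came from separate crosses, so p-values measure the spread between these samples, which may be technical. Libraries held 35550949 to 60322417 counts. Levels are given as CPM, a library's counts scaled to a common total by the trimmed mean of M-values (TMM). Ube3a stood at a mean of 34.6 CPM without a driver, 209 with the glial and 70.4 with the neuronal driver, and every driver library lay above every control library. The log2 fold changes against the control were 2.59 ± 0.15 (adjusted p = 8.4e-05) and 1.02 ± 0.14 (adjusted p = 0.014, edgeR).

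The amine receptors described here are G protein-coupled receptors. Those that couple to the stimulatory G protein raise cyclic AMP in the receiving cell, those that couple to inhibitory G proteins lower it, and others release calcium through phospholipase C. In the fly brain dopamine and octopamine shape associative memory in the mushroom body, arousal and courtship, and serotonin acts on sleep, feeding, aggression and the clock. Receptor messages in a whole brain come from many scattered cell types, so a bulk level is a sum over all of them.

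Dop1R1, the D1-like receptor that raises cyclic AMP and is needed in mushroom body neurons for aversive and appetitive learning, was the receptor gene that differed most between genotypes. It was lowest in the glial line and highest in the neuronal line, and the 3 groups did not overlap. The control libraries gave 52.1, 53.4 and 42.9 CPM, from 1971, 1807 and 1780 counts. The glial libraries gave 31.7, 30.6 and 22.2 CPM, from 2076, 1121 and 688 counts, so glial library 3 was the lowest of all 9. The neuronal libraries gave 63.4, 62.7 and 73.0 CPM, from 3019, 2449 and 2742 counts.

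In the glial line Dop1R1 fell from 49.5 ± 5.76 to 28.2 ± 5.15 CPM (mean ± SD, n = 3), a log2 fold change of -0.81 ± 0.16 (standard error), with adjusted p = 0.024 in edgeR's quasi-likelihood test with Benjamini-Hochberg adjustment over 11430 genes. Against the neuronal line, at 66.4 ± 5.79 CPM, the glial level was 2.36-fold lower (log2 fold change -1.24 ± 0.16, adjusted p = 0.0042). The higher level in the neuronal line than in the control did not pass (0.42 ± 0.16, 95% interval 0.07 to 0.78, adjusted p = 0.29). In bulk samples, fewer cells that make a transcript and less of it per cell cannot be told apart. The glial call against the control was lost without control library 1 (-0.77, adjusted p = 0.0953), control library 2 (-0.79, 0.0679) or glial library 3 (-0.68, 0.0553), when libraries were scaled by their totals (-0.88, 0.0732) and when the 6 libraries of both groups were fitted alone (-0.81, 0.0692). The glial against neuronal call held in each of 20 alternative settings, with log2 fold changes of -1.37 to -0.79 and adjusted p of at most 0.0314.

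**Figure D1:**
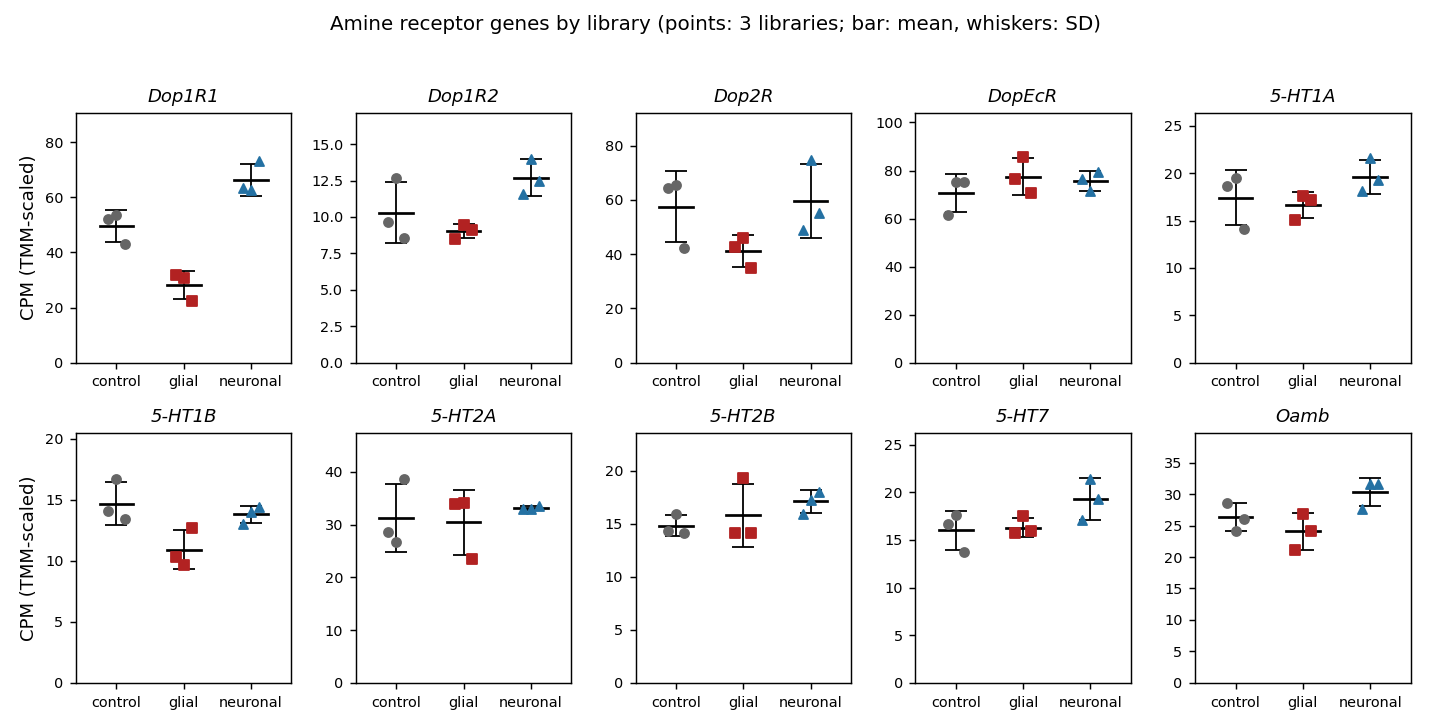
CPM of each receptor gene (y axis, from 0, one scale per gene) in the 3 control, 3 glial and 3 neuronal libraries; points are libraries, bars means and whiskers SD. Dop1R1 separates the 3 genotypes, from 22.2 to 31.7 CPM in the glial line to between 62.7 and 73.0 in the neuronal line, whereas in DopEcR the 3 groups overlap.

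The counts of the RefSeq transcripts of Dop1R1 were far from equal. A single transcript, NM_001260163, held 86.2% to 91.0% of the gene's counts over the 9 libraries, against the 20.0% that equal division among 5 would give. Its share was 86.2% to 89.4% in the control, 88.9% to 90.3% in the glial line and 88.0% to 91.0% in the neuronal line, so the shares overlapped. The Ensembl annotation of the same gene lists 4 transcripts of 2.616 to 2.661 kb and 1 of 14.565 kb, whose coding part is 1.533 kb. The annotations at hand do not pair RefSeq with Ensembl transcripts, so which RefSeq entry is the long form is not settled here. The shares are of raw counts, not scaled for transcript length, so they do not give shares of molecules.

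Both parts of the Dop1R1 count were lower in the glial line. The annotated Dop1R1 transcripts overlap, with 6 exons each and 6 after merging. How reads that match several transcripts were counted is not given, so the parts may not be separate measurements. The most counted transcript gave 46.6, 46.1 and 37.7 CPM in the control, 28.1, 27.2 and 20.1 in the glial and 57.7, 55.2 and 66.3 in the neuronal libraries. The other 4 transcripts together gave 5.50, 7.36 and 5.15 CPM in the control, 3.52, 3.33 and 2.17 in the glial and 5.71, 7.50 and 6.76 in the neuronal libraries. For these 4 the glial libraries lay below both other groups, which overlapped each other. When the gene was tested without NM_001260163, an alternative chosen after seeing the data, the log2 fold change was -1.02 in the glial line against the control (adjusted p = 0.0465), -1.15 against the neuronal line (0.0314) and 0.14 between neuronal line and control (0.846). Tested as single transcripts, NM_001260163 (-0.81 ± 0.16, adjusted p = 0.025) and NM_057659 (-1.14 ± 0.25, adjusted p = 0.041) fell in the glial line against the control, 2 of the 37 receptor transcripts, while 3.58% of all 26410 transcripts tested passed. Against the neuronal line 1 of the 37, NM_001260163, fell (-1.23 ± 0.16, adjusted p = 0.0046), beside 3.22% of all transcripts.

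**Figure D2:**
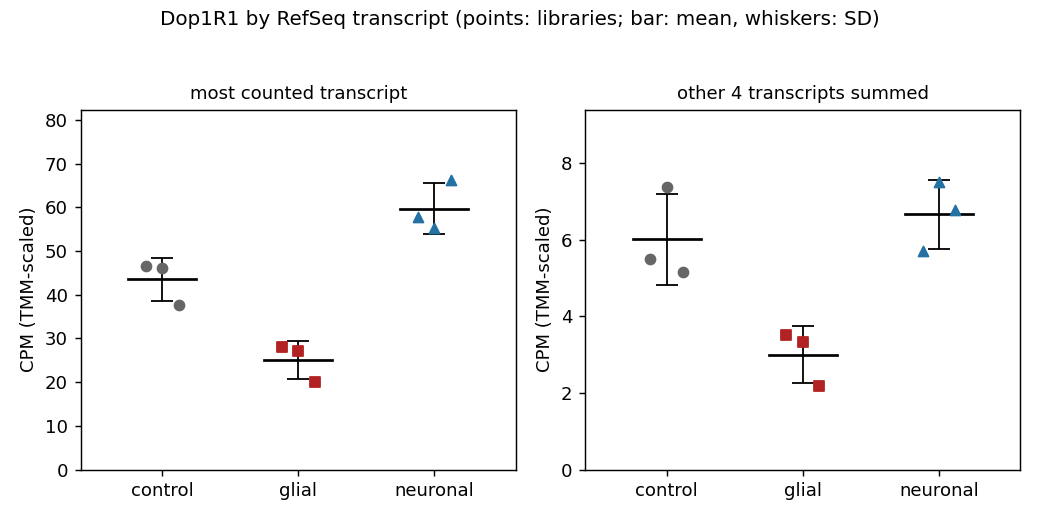
CPM of the most counted Dop1R1 transcript (left) and of the other 4 transcripts summed (right) by genotype, with libraries as points, means as bars and SD as whiskers; the y axes start at 0 and differ in scale. Glial libraries are lowest in both panels, at 20.1 to 28.1 CPM on the left and 2.17 to 3.52 CPM on the right.

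Dop1R2, the other D1-like receptor, also known as DAMB and linked to forgetting, had the lowest mean level per kb of exon and did not pass in any comparison. The control libraries gave 9.68, 12.7 and 8.55 CPM, the glial libraries 8.51, 9.43 and 9.11, and the neuronal libraries 11.6, 14.0 and 12.5. The neuronal libraries all lay above the glial ones, and the control spread across both. The glial against neuronal difference was -0.49 ± 0.17 (95% interval -0.88 to -0.11, unadjusted p = 0.017, adjusted p = 0.16, edgeR). The smallest count of any receptor gene in any library was the 282 of Dop1R2 in glial library 3.

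Dop2R, the D2-like receptor that lowers cyclic AMP and also acts as an autoreceptor on dopamine neurons, varied widely within genotypes. It gave 64.5, 65.6 and 42.4 CPM in the control, 42.8, 46.1 and 34.8 in the glial and 48.8, 74.8 and 55.2 in the neuronal libraries. Control library 3 was as low as the glial libraries, and neuronal library 2 was the highest of the 9. The glial values were -0.48 ± 0.21 against the control (95% interval -0.96 to 0.00, adjusted p = 0.25) and -0.53 ± 0.21 against the neuronal line (-1.01 to -0.05, adjusted p = 0.23, edgeR). Neither passed, and the neuronal line against the control gave 0.05 ± 0.21.

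Of the 6 Dop2R transcripts, 5 held similar shares, from 16.2% to 20.6% of the gene's counts, and NM_001014759 held 7.36% to 11.4%. The annotation lists 1 Dop2R transcript of 4.359 kb and 5 of 5.461 to 5.896 kb. Among the other receptor genes the most counted transcript had 1.27 to 2.22 times the counts of the least counted one, beside 40.1 times in Dop1R1 (medians over the 9 libraries, for genes with 2 or more transcripts in the table).

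DopEcR, a receptor that answers to dopamine and to the steroid ecdysone, passed in no comparison. The libraries gave 61.5, 75.3 and 75.1 CPM in the control, 76.4, 85.5 and 70.6 in the glial and 76.6, 71.3 and 79.2 in the neuronal line. All 3 groups overlapped. The differences were 0.13 ± 0.12 for glial against control (95% interval -0.14 to 0.41), 0.10 ± 0.12 for neuronal against control (-0.17 to 0.37) and 0.03 ± 0.12 for glial against neuronal (-0.24 to 0.31), each with an adjusted p of 0.59 or more in edgeR. These intervals leave out a change of DopEcR as large as that of Dop1R1 in the glial line. Its 3 transcripts kept shares of 39.7% to 41.8%, 35.1% to 38.6% and 21.2% to 24.7% over the 9 libraries.

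The serotonin receptors 5-HT1A and 5-HT1B both lower cyclic AMP, and in the fly they are linked to sleep, aggression and, for 5-HT1B, clock entrainment. 5-HT1B gave 14.1, 16.7 and 13.4 CPM in the control, 10.3, 9.65 and 12.7 in the glial and 13.0, 14.0 and 14.4 in the neuronal libraries. The glial libraries lay below both other groups, which overlapped. The difference from the control was -0.44 ± 0.15 (95% interval -0.78 to -0.10, unadjusted p = 0.017) and did not pass after adjustment (adjusted p = 0.15, edgeR). Against the neuronal line it was -0.35 ± 0.15 (adjusted p = 0.27). Its 3 transcripts gave -0.41, -0.51 and -0.48 against the control. Their exons overlap in the annotation, so these values may not be separate measurements.

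5-HT1A gave 18.6, 19.5 and 14.1 CPM in the control, 15.1, 17.6 and 17.2 in the glial and 18.1, 21.6 and 19.3 in the neuronal libraries. Neuronal libraries lay above the glial ones, and the control overlapped both. The glial against neuronal value was -0.24 ± 0.15 (95% interval -0.59 to 0.10, adjusted p = 0.47), and the values against the control were -0.07 ± 0.15 for the glial and 0.18 ± 0.15 for the neuronal line (edgeR). The table holds 1 RefSeq transcript of this gene.

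5-HT2A and 5-HT2B signal through calcium, and 5-HT7 raises cyclic AMP. None of the 3 passed in any comparison. 5-HT2A gave 28.6, 26.7 and 38.7 CPM in the control, 33.9, 34.0 and 23.4 in the glial and 32.9, 32.9 and 33.5 in the neuronal libraries, so a single control library was the highest and a single glial library the lowest. 5-HT2B gave 14.3, 15.9 and 14.1 CPM in the control, 14.1, 19.3 and 14.1 in the glial and 15.9, 17.2 and 18.0 in the neuronal libraries. The neuronal libraries were above the control ones by less than the rounding at the nearest pair (0.21 ± 0.15, adjusted p = 0.61, edgeR). 5-HT7 gave 16.7, 17.6 and 13.7 CPM in the control, 15.7, 17.5 and 15.9 in the glial and 17.1, 21.4 and 19.3 in the neuronal libraries, and all 3 groups overlapped. Its largest value was 0.27 ± 0.14 in the neuronal line against the control (95% interval -0.06 to 0.59, adjusted p = 0.47).

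Oamb, the alpha1-like octopamine receptor of the mushroom body and of ovulation, gave 28.6, 24.1 and 26.0 CPM in the control, 21.1, 26.9 and 24.1 in the glial and 27.7, 31.6 and 31.6 in the neuronal libraries. The neuronal libraries lay above the glial ones, and the control overlapped both. The glial against neuronal difference was -0.33 ± 0.13 (95% interval -0.63 to -0.04, unadjusted p = 0.029, adjusted p = 0.21, edgeR). Its 6 transcripts did not all give the same value. In the neuronal line against the control the 2 most counted, NM_001275846 and NM_079930, gave -0.02 ± 0.14 and -0.07 ± 0.14, and the other 4 gave 0.29 to 0.33 with standard errors of 0.15 to 0.25. None of the 6 passed, the difference between them was not tested, and the split was noticed after the values were seen.

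**Figure D3:**
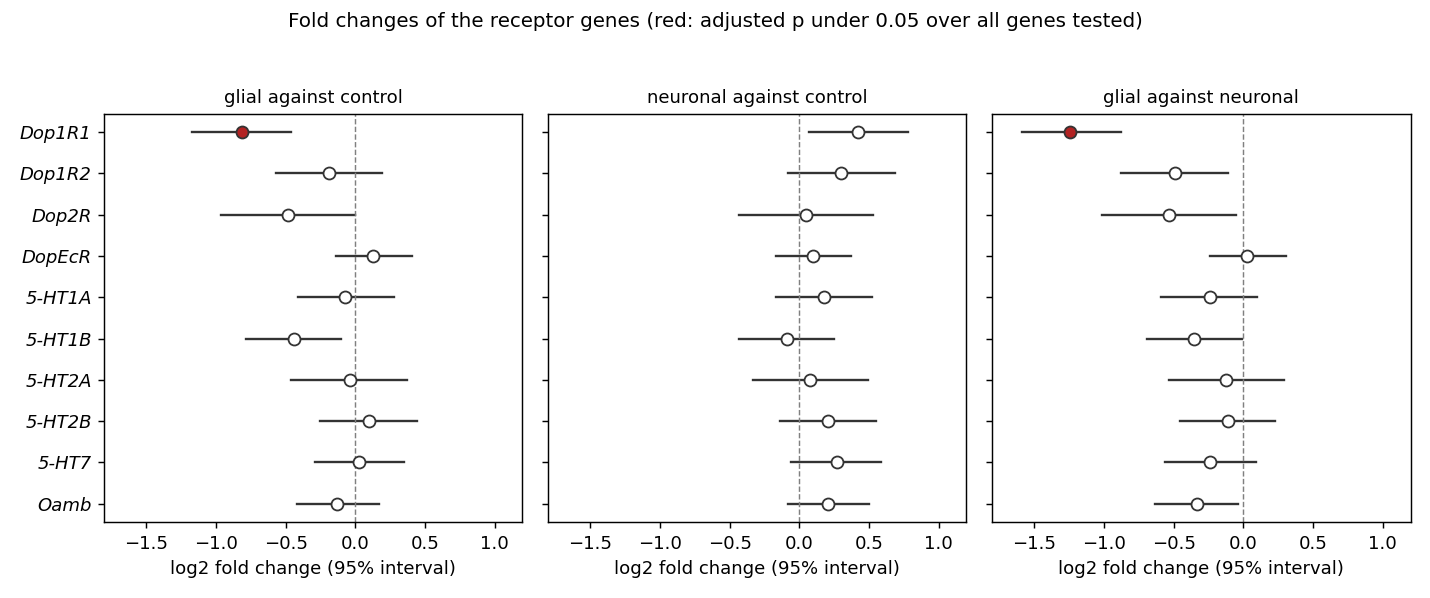
Log2 fold change (x axis, point) with its 95% interval (line) of each receptor gene in the 3 comparisons; red points passed an adjusted p of 0.05. Dop1R1 is red for glial against control (-0.81) and glial against neuronal (-1.24), and 9 of the 10 points lie below 0 in the right panel.

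Counted by comparison, 1 of 10 receptor genes fell and 0 rose in the glial line against the control, where 4.42% of all genes tested passed and 1.88% fell. At an unadjusted p under 0.05 there were 2 of 10 lower and 0 higher, beside 9.38% of all genes lower. Values lay below 0 for 7 of the 10, beside 49.3% of all genes. The median log2 fold change of the 10 was -0.10, beside 0.01 over all genes. In 2 of the 10, Dop1R1 and 5-HT1B, all glial libraries lay below all control libraries, a pattern seen in 12.9% of all genes.

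In the neuronal line against the control 0 of 10 passed with edgeR, DESeq2 or limma-voom, and 1 had an unadjusted p under 0.05 (edgeR), while 0.709% of all genes passed and 0.306% were higher. At an unadjusted p under 0.05, 6.55% of all genes were higher. Values lay below 0 for 1 of the 10 receptor genes, beside 49.5% of all genes, with a median of 0.19 beside 0.00 over all genes. The groups did not overlap for Dop1R1 and 5-HT2B, both higher, against 10.7% of all genes higher without overlap.

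Between the driver lines 1 of 10 was lower in the glial line with adjusted p under 0.05, where 3.69% of all genes passed and 1.67% were lower. At an unadjusted p under 0.05 there were 5 of 10 lower and 0 higher, beside 8.57% of all genes lower. These were Dop1R1, Dop1R2, Dop2R, 5-HT1B and Oamb. All glial libraries lay below all neuronal ones for those 5 and for 5-HT1A, 6 of 10 in all, beside 11.5% of all genes tested. Values lay below 0 for 9 of the 10, beside 48.5% of all genes. The median of the 10 was -0.29 and of all genes 0.01. The 3 comparisons share libraries in pairs, so their counts are not separate evidence.

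Neuronal markers were measured beside the receptors. The summed level of 16 neuronal markers was 2927 to 3265 CPM in the control, 2525 to 3137 in the glial and 3644 to 4263 in the neuronal libraries, and no marker was at 0. Of the 16, 3 fell in the glial against the neuronal line with edgeR: brp, a presynaptic active zone protein (-0.66 ± 0.13, adjusted p = 0.028), fne, a neuronal RNA-binding protein (-0.71 ± 0.13, 0.02), and VGlut, the vesicular glutamate transporter (-0.57 ± 0.10, 0.021). Of all genes tested 1.67% were lower with edgeR. With DESeq2 6 of the 16 markers fell, beside 432 lower of the 11430 genes tested. At an unadjusted p under 0.05 (edgeR) 13 of the 16 were lower and 0 higher, beside 5 of 10 receptor genes and 8.57% of all genes lower. The median log2 fold change of the 16 markers was -0.48, with all 16 below 0, next to -0.29 for the receptors. Against the control the marker medians were -0.15 in the glial line (0 of 16 passed with edgeR and limma-voom, 2 fell with DESeq2, 4 lower unadjusted) and 0.31 in the neuronal line (0 passed with edgeR and limma-voom, 2 rose with DESeq2, 7 higher unadjusted). Over all genes DESeq2 called 480 lower in the glial and 223 higher in the neuronal line. Unadjusted, 9.38% of all genes were lower in the glial and 6.55% higher in the neuronal line (edgeR).

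When libraries were scaled to the summed counts of 11 of these markers, 7 of the 10 receptor genes lay above 0 in the glial against the neuronal line and Dop1R1 still fell. This scaling moved the median of all genes to 0.48 in glial against neuronal, -0.33 in neuronal against control and 0.14 in glial against control. Dop1R1 remained lower in the glial line, at -0.79 against the neuronal line (adjusted p = 0.00929) and -0.69 against the control (0.0359, edgeR). In the glial against neuronal comparison 6 of the 10 receptor genes took the opposite sign, at between 0.13 for Oamb and 0.34 for 5-HT2B, none of which passed. DopEcR then passed at 0.49 (adjusted p = 0.0318), a value close to the shift of the median gene. In the neuronal line against the control 8 took the opposite sign, at between -0.29 for Dop2R and -0.03 for Dop1R2, and Dop1R1 gave 0.09 (adjusted p = 0.67).

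Per 1000 CPM of the 11 neuronal markers, Dop1R1 stood at 19.7, 19.3 and 17.1 CPM in the control, 13.0, 11.3 and 10.3 in the glial and 20.2, 17.3 and 22.5 in the neuronal libraries. On this scale control and neuronal libraries overlapped and the glial libraries lay below both. DopEcR stood at 23.3, 27.2 and 29.9 in the control, 31.4, 31.7 and 32.7 in the glial and 24.4, 19.7 and 24.4 in the neuronal libraries, so its glial libraries lay above both. The glial libraries also lay above both other groups for 5-HT2B (means 5.59 ± 0.157 in the control, 6.49 ± 0.675 in the glial and 5.12 ± 0.397 in the neuronal line) and 5-HT7 (6.05 ± 0.524, 6.77 ± 0.528 and 5.75 ± 0.283). With this scaling the median gene stood at 0.14 in glial against control and 0.48 in glial against neuronal (log2 fold change). How many of all genes show such a pattern on this scale was not counted, so it is not called particular to these receptors. Dop1R2 was near level, with means of 3.88 ± 0.617, 3.74 ± 0.421 and 3.79 ± 0.103 in control, glial and neuronal line (SD, n = 3).

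**Figure D4:**
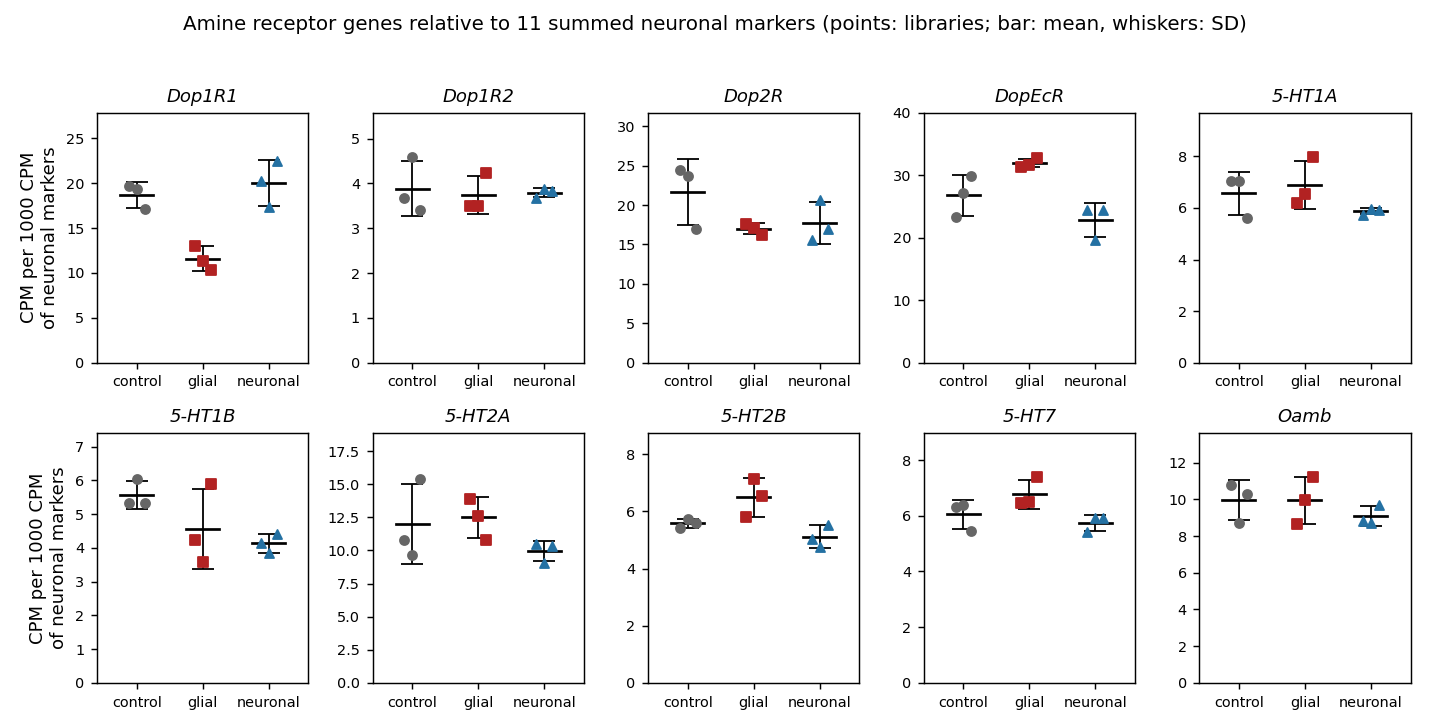
CPM of each receptor gene per 1000 CPM of 11 summed neuronal markers (y axis, from 0) in each library, with means as bars and SD as whiskers. On this scale Dop1R1 is low in the glial line (mean 11.6) and overlaps between control (18.7) and neuronal line (20.0), while Dop1R2 means lie between 3.74 and 3.88.

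Other cell types were examined as well. The glial markers held both directions in the glial line, with 5 of 12 tested that fell and 2 that rose against the control, and the summed level was 3069 to 3692 CPM in the control, 1944 to 2833 in the glial and 2894 to 3583 in the neuronal libraries. Of all genes tested 4.42% passed and 1.88% fell in the glial line against the control. Of 6 mushroom body markers, genes of the neurons where Dop1R1, Dop1R2 and Oamb are prominent, sNPF fell in the glial line against the control (-1.01 ± 0.12, adjusted p = 0.0026, edgeR), and the other 5 did not pass. The sNPF means were 137 ± 10.6 CPM in the control, 68.2 ± 4.34 in the glial and 95.9 ± 10.4 in the neuronal line. With DESeq2 1 of the 6 fell in neuronal against control and 2 in glial against neuronal, where edgeR and limma-voom gave 0. Over the 11430 genes tested DESeq2 called 247 and 432 lower in these comparisons. The summed level of these 6 was 518 to 582 CPM in the control, 429 to 504 in the glial and 535 to 654 in the neuronal libraries. Summed gut markers ranged from 3112 to 73376 CPM in the control, 3117 to 71828 in the glial and 12450 to 76395 in the neuronal libraries. With the gut level as a covariate Dop1R1 gave -0.82 (adjusted p = 0.035) against the control and -1.23 (0.00487) against the neuronal line. Of 9 fat body markers tested 2 rose in the glial line against the control and 3 were higher than in the neuronal line (edgeR). Over the 11430 genes tested 290 and 231 were higher in these comparisons. Fat body markers summed to between 40497 and 156385 CPM, eye markers to between 46934 and 66761 and muscle markers to between 7486 and 11978, so RNA beyond brain neurons and glia was present in every library. The part of fat body, eye, muscle and mushroom body content in the receptor values was not tested.

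The levels of the receptors were also compared with each other, as CPM per kb of merged exons, a scale on which long untranslated exons lower a gene's value. On merged exons DopEcR stood first at 17.4 ± 1.54 CPM per kb (SD over 9 libraries), and its lowest library lay above the highest library of Dop2R, which followed at 8.08 ± 2.01. From Dop2R downward each gene's range overlapped that of the gene above it: 5-HT2A at 5.84 ± 0.849, Oamb at 4.86 ± 0.632, 5-HT7 at 3.83 ± 0.493, 5-HT1A at 3.56 ± 0.454, Dop1R1 at 3.30 ± 1.19, 5-HT1B at 3.26 ± 0.531, 5-HT2B at 2.51 ± 0.305 and Dop1R2 at 2.07 ± 0.396. The order of the top 4 and the last place were the same in the 3 genotypes. Dop1R1 took place 8 in the control, 9 in the glial and 5 in the neuronal line, and its coefficient of variation over the 9 libraries, 36.0%, was the highest of the 10, against 8.84% for DopEcR. The merged exons of Dop1R1 span 14.565 kb, against 4.026 to 6.53 kb for the other genes, and both its place and that of DopEcR rest on that length. Divided by its shortest transcript of 2.616 kb, a length chosen after seeing the data, Dop1R1 stood at 18.3 ± 6.60 CPM per kb (range 8.50 to 27.9), which is above the 17.4 of DopEcR on merged exons. With the shortest transcript used for every gene, DopEcR stood at 30.8 ± 2.72 (25.3 to 35.3), and its range overlapped that of Dop1R1, which came next. With the same kind of length for both genes, DopEcR had the higher mean on merged exons, longest transcripts and shortest transcripts. The level per kb of each gene still depends on which of its transcripts were present, which is not settled here.

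**Figure D5:**
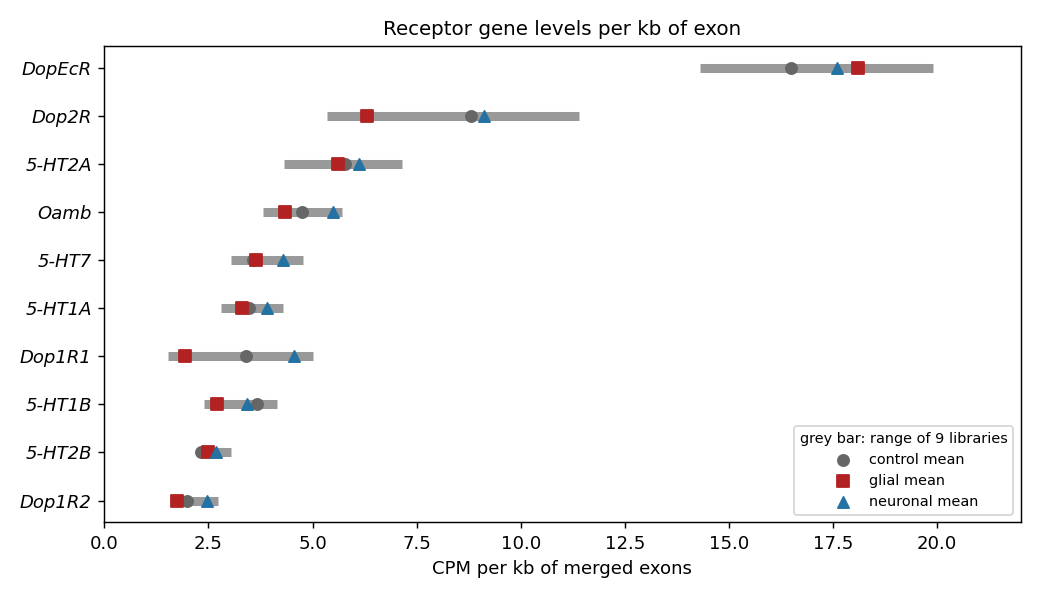
Level of each receptor gene in CPM per kb of merged exons (x axis, from 0); grey bars span the 9 libraries and symbols mark the genotype means. On this length DopEcR (17.4 on average) lies above the others, and the Dop1R1 means run from 1.93 in the glial to 4.56 in the neuronal line. With the shortest transcript of each gene, the mean of Dop1R1 (2.616 kb) would be 18.3 and that of DopEcR 30.8.

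The 5 genes whose pattern was most like that of Dop1R1 were named by the smallest root mean square difference in centred log2 CPM over the 9 libraries. They were Grl36b (0.17), CG7084 (0.18), CG3857 (0.18), nolo (0.21) and asRNA:CR32252 (0.21), where the median over all genes tested was 0.63. CG7084 had a mean of 39.5 CPM in controls, 22.4 in the glial and 49.8 in the neuronal line, and nolo 76.8, 42.5 and 86.9. Grl36b and asRNA:CR32252 lay below 2 CPM in all 3 group means. Among the other receptors the nearest was Dop2R at 0.36, and the rest lay between 0.39 for Dop1R2 and 0.57 for DopEcR. A gene equal in all 9 libraries would stand at 0.54.

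Of the 7 remaining octopamine and tyramine receptor genes, none passed with edgeR or limma-voom in any comparison. In the glial line against the control the unadjusted count was 3 lower and 0 higher, 1 fell with DESeq2, and the median was -0.31. Over all genes 9.38% were lower unadjusted, 480 genes fell with DESeq2, and the median was 0.01. Octbeta2R and Octalpha2R are named because their adjusted p came closest, a choice made after their values were seen. Octbeta2R, which raises cyclic AMP, had means of 28.8 ± 1.10 CPM in controls, 17.9 ± 4.18 in the glial and 22.5 ± 2.94 in the neuronal line (glial against control -0.68 ± 0.17, adjusted p = 0.062, edgeR). Octalpha2R averaged 26.6 ± 1.48, 20.0 ± 1.81 and 28.7 ± 3.73 CPM (glial against neuronal -0.52 ± 0.13, adjusted p = 0.063). In glial against neuronal the list had 2 lower and 0 higher unadjusted, 1 lower with DESeq2 and a median of -0.29. Over all genes 8.57% were lower unadjusted, 432 genes were lower with DESeq2, and the median was 0.01. In neuronal against control the list had 0 unadjusted, 0 with DESeq2 and a median of 0.11, beside 0.00 over all genes.

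In the glial line against the control, 4.42% of all genes tested passed and 1.88% fell, with a median of 0.01. Among 17 genes of amine synthesis and transport, 3 fell and 1 rose there (median -0.25). Those that fell were Pu, GTP cyclohydrolase of the pteridine cofactor route (332 ± 13.3 to 150 ± 15.8 CPM, -1.15 ± 0.13, adjusted p = 0.0019), b, the aspartate decarboxylase that makes beta-alanine (39.0 ± 4.37 to 11.2 ± 3.82 CPM, -1.81 ± 0.22, 0.003), and e, which conjugates beta-alanine to dopamine and histamine (139 ± 4.42 to 90.8 ± 16.0 CPM, -0.61 ± 0.14, 0.042). The gene that rose was ple, tyrosine hydroxylase, the first step of dopamine synthesis, at 68.3 ± 21.0 CPM in the control and 235 ± 135 in the glial line (1.78 ± 0.38, adjusted p = 0.032, edgeR). The enzyme genes b (-1.65 ± 0.22, adjusted p = 0.0051), Pu (-0.91 ± 0.13, 0.0061) and e (-0.74 ± 0.14, 0.022) were also lower in the glial than in the neuronal line, and no member was higher there with edgeR or limma-voom. In that comparison DESeq2 called 4 higher and 4 lower, and unadjusted counts were 4 higher and 5 lower. Of all genes tested, edgeR called 1.67% lower there, and DESeq2 called 581 genes higher and 432 lower. At an unadjusted p under 0.05, 8.57% of all genes were lower (edgeR). In the neuronal line against the control 0 of 17 passed with edgeR, DESeq2 or limma-voom, and 0 had an unadjusted p under 0.05. Of all genes 0.709% passed there with edgeR.

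Among 29 genes of G protein and cyclic AMP signalling downstream of these receptors, 0 passed in either driver line against the control with edgeR or limma-voom. DESeq2 gave 3 lower in the glial and 1 higher in the neuronal line, and unadjusted counts were 7 lower and 2 higher in the glial and 4 higher and 0 lower in the neuronal line. Over all genes DESeq2 called 480 lower in the glial and 223 higher in the neuronal line. Unadjusted, 9.38% of all genes were lower in the glial and 6.55% higher in the neuronal line (edgeR). In glial against neuronal 3 fell and 0 rose: Galphao, the Go alpha subunit (121 ± 5.55 against 177 ± 5.64 CPM, -0.55 ± 0.10, adjusted p = 0.017), Ac3, an adenylyl cyclase (21.7 ± 2.70 against 35.9 ± 5.49 CPM, -0.72 ± 0.15, 0.031), and Plc21C, a phospholipase C (107 ± 4.83 against 145 ± 5.41 CPM, -0.43 ± 0.10, 0.042, edgeR). Of all genes tested 1.67% were lower at this threshold. DESeq2 gave 8 lower and 0 higher, beside 432 lower and 581 higher over all genes. At an unadjusted p under 0.05 (edgeR) there were 12 lower and 1 higher, beside 8.57% of all genes lower. Values lay below 0 for 26 of the 29, beside 48.5% of all genes. The list's median in glial against neuronal was -0.28, beside -0.48 for the neuronal markers and 0.01 for all genes.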

How the data were processed

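Total RNA was sequenced in 9 libraries with Ion Torrent chemistry, per the series' design text. The authors deposited raw counts, whole numbers per RefSeq transcript with no scaling, in 9 columns, each matched to a sample by its label. STAR and DESeq2 are named in the submitters' processing notes without role or version. For the counting program, genome build and strand handling: not given in the sources used here. No coordinates are printed. Of 31838 transcripts 31673 matched a gene of the RefSeq annotation (Release 6 plus ISO1 MT), and the other 165 were kept as entries of their own. Counts were summed per gene. TMM scaling and the quasi-likelihood test of edgeR 4.0.16 (R 4.3.3) were applied to all 9 libraries in a model of genotype alone. The filter was filterByExpr (minimum count 10, minimum total 15), which left 11430 genes, and calls needed a Benjamini-Hochberg adjusted p under 0.05. A standard error is the log2 fold change divided by the square root of F, and 95% intervals use the test's degrees of freedom. DESeq2 1.42.0 and limma-voom (limma 3.58.1) were run as alternatives. The edgeR step was tested on simulated data.

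Merged exon lengths, transcript lengths and gene overlaps come from the Ensembl annotation of assembly BDGP6. No exon of the 10 receptor genes shares bases with an exon of another annotated gene. No sequences are printed. The members, gene lists and alternatives were chosen with earlier results of these data known. Named were all 10 receptors, Ube3a, up to 4 members past the threshold per pathway list and comparison, and the 5 genes most like a receptor that passed. Replicate numbers did not pair the libraries: of 9 same-numbered pairs 2 had a correlation of deviations over 0.1 (range -0.57 to 0.37).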

Additional observations from a re-analysis of the deposited data

Results flagged for a closer look

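The glial and neuronal driver lines differed in Dop1R1 by a direct test of the difference between them. The log2 fold change of glial against neuronal was -1.24 ± 0.16 (adjusted p = 0.0042 in edgeR's quasi-likelihood test), with all 3 glial libraries below all 3 neuronal libraries. The lines carried different drivers and also differed in Ube3a, at means of 209 CPM in the glial and 70.4 in the neuronal line. In this design driver, cell type and transgene level cannot be told apart. The other 9 receptor genes did not pass the test of glial against neuronal. Groups of 3 libraries are too small for a search for outlying samples.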

How the results depend on the processing

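The Dop1R1 difference between glial and neuronal line passed in all 20 alternatives, and its glial against control value passed in 14 of 20, with the replicate block (-0.82, adjusted p = 0.0542) among the 6 that did not. The block changed no other receptor call. The replicate numbers did not pair the libraries. No other receptor passed in any alternative except DopEcR under neuronal scaling.

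Receptors past the threshold in glial against control went from 1 to 0 with library totals, with the 6 libraries alone and with the replicate block, and were 0 to 1 leaving out a library. In glial against neuronal they went from 1 to 2 with neuronal scaling. Genes past the threshold in glial against control numbered 505 (290 higher), but 281 with library totals (126 higher), 1110 with DESeq2, 274 with the 6 libraries alone, 281 with the replicate block and 181 to 447 leaving out a library. In neuronal against control they numbered 81 (35 higher), but 44 with library totals, 285 with neuronal scaling (20 higher), 470 with DESeq2, 15 with the block and 16 to 62 leaving out a library. In glial against neuronal they numbered 422 (231 higher), but 243 with library totals (95 higher), 3016 with neuronal scaling (2928 higher), 1013 with DESeq2, 227 with the 6 libraries alone, 241 with the block and 154 to 392 leaving out a library. Per kb of the longest transcript 5-HT2A stood at 7.26 and Oamb at 6.56. Per kb of the shortest transcript, a setting chosen after seeing the data, Dop1R1 stood at 18.3, Dop2R at 12.1, DopEcR at 30.8, 5-HT1B at 4.40, 5-HT2A at 9.95, 5-HT2B at 3.96, 5-HT7 at 4.91 and Oamb at 7.81. The levels per kb moved because the lengths differ, and the causes of the other shifts were not tested.

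Signs turned only in receptors that had not passed. In glial against control, 5-HT2B (-0.00) and 5-HT7 (-0.06) turned with library totals, 5-HT1A (0.07) and 5-HT2A (0.06) with neuronal scaling, 5-HT2A (0.07) and 5-HT7 (-0.00) with the gut level, and 5-HT7 (-0.02) without its most counted transcript, a setting chosen after seeing the data. In neuronal against control, neuronal scaling turned Dop1R2 (-0.03), Dop2R (-0.29), DopEcR (-0.23), 5-HT1A (-0.16), 5-HT2A (-0.27), 5-HT2B (-0.13), 5-HT7 (-0.07) and Oamb (-0.13), the gut level Dop2R (-0.02), and single transcripts Dop2R (-0.08), 5-HT2A (-0.06) and Oamb (-0.02). In glial against neuronal, library totals turned DopEcR (-0.12), neuronal scaling 5-HT1A (0.23), 5-HT1B (0.14), 5-HT2A (0.33), 5-HT2B (0.34), 5-HT7 (0.23) and Oamb (0.13), and leaving out the most counted transcript DopEcR (-0.00). Leaving out a library, glial against control ran from -0.17 to 0.14 for 5-HT2A, -0.07 to 0.07 for 5-HT7, -0.20 to 0.00 for 5-HT1A and -0.09 to 0.18 for 5-HT2B. Neuronal against control ran from -0.15 to 0.18 for Dop2R and -0.04 to 0.26 for 5-HT2A, and glial against neuronal from -0.06 to 0.09 for DopEcR and -0.22 to 0.03 for 5-HT2A. With 3 libraries a group, receptors that did not pass may still differ, within the bounds of their 95% intervals. Many of these intervals leave both directions open. In glial against neuronal those of Dop1R2, Dop2R, 5-HT1B and Oamb lay wholly below 0, as did that of 5-HT1B in glial against control. The interval of Dop1R1 in neuronal against control lay wholly above 0. The intervals are not adjusted for the number of genes tested.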
